A study of Mus musculus with 4 samples.

Results

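The complement genes were examined in liver surface tissue of mouse embryos without p57 and of wild-type embryos. The set was a list of 34 genes for complement components, receptors and regulators, and its members were the array probe sets annotated with 1 of these symbols alone. Of the 34 genes, 30 had such a probe set, 51 probe sets in all, on an array that named 18193 genes in this way. The test was limited to probe sets with a Present call on 2 or more of the 4 arrays, which left 29 of these genes, among 11656 genes in all. Cd46, which encodes a membrane cofactor that inactivates C3b, was the exception, with no Present call and signals of 51.9 and 88.0 in p57-/- against 97.5 and 105 in p57+/+. C3, C7 and Cfd had no probe set of their symbol in the annotation used and were not analysed here, and the probe set of C4b also detects C4a.

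Complement is a cascade of plasma proteins that coats microbes and cell debris and can punch pores into membranes. It is started by C1q bound to antibody, by lectins bound to sugars, or by slow spontaneous activation of C3, and all routes meet at cleavage of C3 and then C5. The terminal components C5 to C9 then assemble into the membrane attack complex. Hepatocytes secrete most of the plasma components, macrophages are the main source of C1q, and soluble and membrane-bound regulators keep the cascade off host cells.

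The samples were mesothelial and submesothelial cells taken surgically from livers of C57BL/6 embryos at embryonic day 17.5. There were 2 samples of p57-/- embryos, which lack p57, the product of Cdkn1c (Kip2), through an allele that the labels do not describe further, and 2 of p57+/+ embryos. The titles place 1 of each genotype in experiment 1 and 1 of each in experiment 2. One Affymetrix array was used per sample. Whether a sample was 1 embryo or a pool is not stated, and the p-values reflect the spread among these 4 samples, part of which may be technical. Values are the deposited MAS5 signals, which were scaled to a common mean and can be compared between arrays for 1 probe set but not between probe sets. A change is the log2 signal of p57-/- minus that of p57+/+, with the standard error of the limma fit.

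The labelled genotypes matched Cdkn1c, at 7.79 and 7.28 (Absent) in p57-/- against 10255 and 9866 in p57+/+. Between 48.5% and 50.1% of probe sets were called Present on each array. The surgically taken tissue held other liver cells: the hepatocyte genes Apoa1, Ttr and Afp had mean signals of 61882 to 69523 in p57-/- and 62948 to 66355 in p57+/+. Of 13 genes listed as mesothelial 12 were Present on every array, and Tbx18 was Absent on all 4. The brightest, Krt8, Krt18 and Alcam, had mean signals of 3472 to 3883 in p57-/- and 2641 to 4830 in p57+/+. Their changes differed in sign, at -0.32 (SE 0.18), -0.24 (SE 0.13) and 0.39 (SE 0.12). Of the 12 genes 5 were higher in both experiments and 5 lower, beside 29.6% and 26.7% of all tested genes, and 2 were opposed. The median change was 0.04. At an unadjusted limma p under 0.05, 4 were higher and 0 lower, beside 4.70% and 4.07% of all tested genes. The 4, named after their values were seen, were Wt1 (0.64, SE 0.21), Bnc1 (0.60, SE 0.18), Alcam and Gpm6a (0.35, SE 0.16). None passed the adjusted threshold. The endothelial genes Lyve1, Stab2 and Eng, the brightest of 9 tested, were at -0.09 (SE 0.14), 0.22 (SE 0.16) and 0.11 (SE 0.18). Over the 9 the median change was 0.17, at 0.43 in experiment 1 and -0.15 in experiment 2. Of these 9, 8 were opposed between the experiments, beside 5099 of all 11656 tested genes. In such bulk samples, fewer cells of a type and less RNA per cell cannot be told apart. Xist, made in female cells, gave 7889 and 6412 in p57-/- against 12199 and 86.7 in p57+/+. The Y-linked gene Eif2s3y gave 966 and 904 in p57-/- against 2.56 (Absent) and 1734 in p57+/+. Both p57-/- arrays thus carried transcripts of both sexes and the p57+/+ arrays of different sexes, and the part of sex in the values below was not tested.

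Of the 29 tested complement genes, none passed the threshold of an adjusted p of 0.05 in limma, a call that 0.00439% of all probe sets received. At an unadjusted p under 0.05, 6 complement genes were lower in p57-/- and 0 were higher, beside 4.07% and 4.70% of all tested genes. These 6 were C9, Mbl2, C4bp, C8a, Hc and Mbl1. At least 2-fold lower in both experiments were 3 of the 29, namely C9, Mbl2 and C4bp, beside 0.266% of all tested genes. Over the 29 genes the median log2 change was -0.0093, beside 0.016 for all tested genes. Both p57-/- signals lay under both p57+/+ signals for 7 of the 29 (background 19.0%) and over them for 4 (background 21.7%). Both counts of genes without overlap lay near the background.

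**Figure D1:**
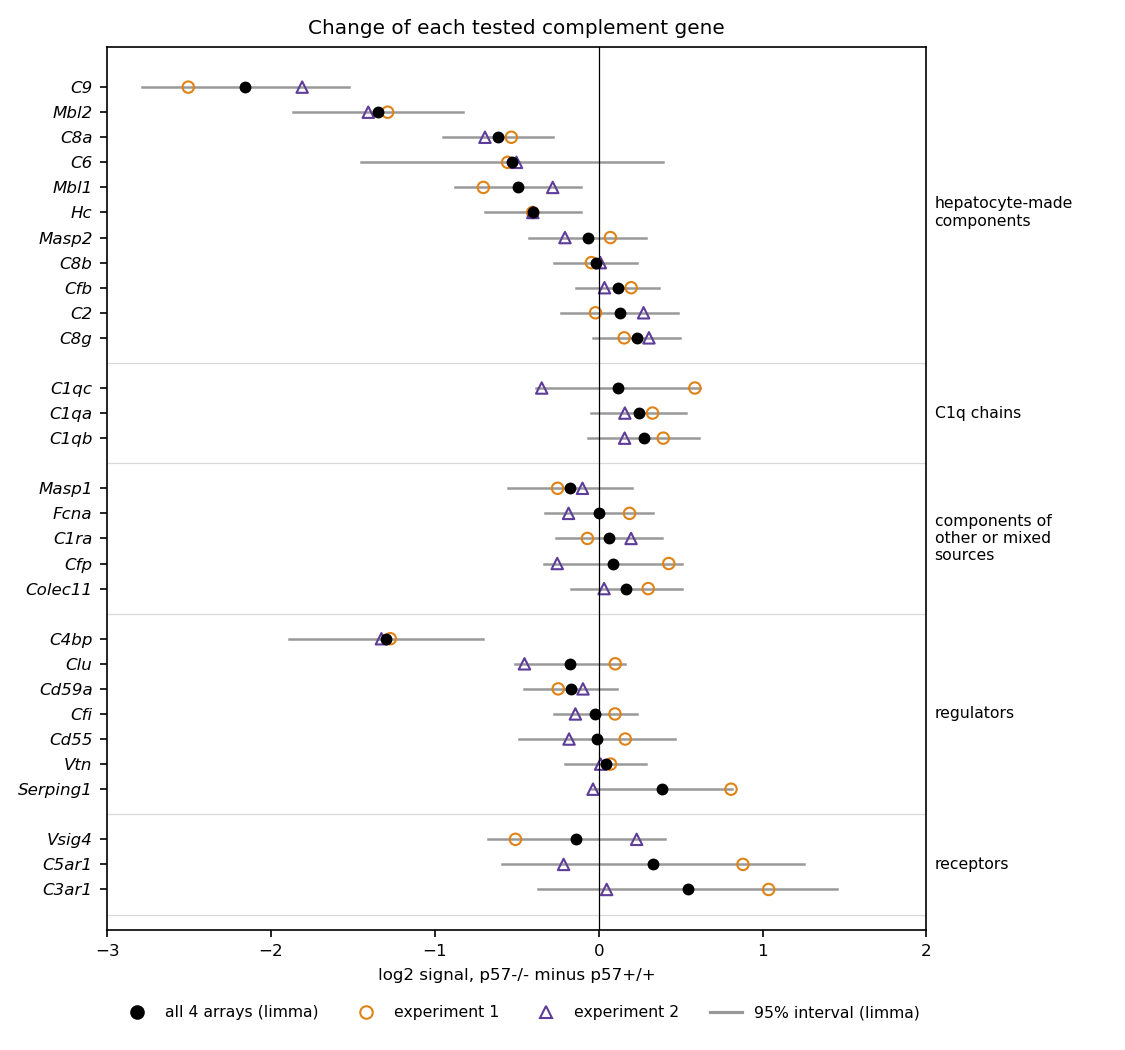
Log2 change of the 29 tested complement genes, p57-/- minus p57+/+, grouped by role. Black points are the limma estimates from 4 arrays with 95% intervals, open circles and triangles the differences within experiments 1 and 2; C9, Mbl2 and C4bp lie at -2.16, -1.35 and -1.30, while most other points lie within 0.5 of 0.

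C9, Mbl2 and C4bp carried the largest differences, and their promoters are shown to give the regions upstream of these transcripts. The windows are from RefSeq on GRCm38.p6, run from 250 bases before to 50 after the gene start, and are written 5′ to 3′ on the gene's strand. They lie at chr15:6445096-6445395 on the + strand for C9, at chr19:30232678-30232977 on the + strand for Mbl2 and at chr1:130661569-130661868 on the - strand for C4bp. Both strands were searched for the letters TATAAA of the TATA box. The letters of the CCAAT box were those of its name. For HNF1, a factor of hepatocytes, the half-site GTTAAT was searched. For C/EBP factors the letters were TTGCNNAA, and for the hepatocyte factor HNF4 they were CAAAGTCCA. Capitals mark every match, and no matches overlapped.
C9: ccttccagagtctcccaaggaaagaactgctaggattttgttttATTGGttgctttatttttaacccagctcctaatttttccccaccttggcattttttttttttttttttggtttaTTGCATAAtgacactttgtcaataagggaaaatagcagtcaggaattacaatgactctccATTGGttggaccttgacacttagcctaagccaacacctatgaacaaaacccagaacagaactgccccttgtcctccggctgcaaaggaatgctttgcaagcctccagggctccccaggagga
Mbl2: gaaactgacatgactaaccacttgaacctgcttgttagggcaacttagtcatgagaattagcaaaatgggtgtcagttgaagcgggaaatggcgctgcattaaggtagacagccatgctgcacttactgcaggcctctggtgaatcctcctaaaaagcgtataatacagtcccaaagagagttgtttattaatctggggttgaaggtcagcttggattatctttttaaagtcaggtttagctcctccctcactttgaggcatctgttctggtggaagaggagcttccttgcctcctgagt
C4bp: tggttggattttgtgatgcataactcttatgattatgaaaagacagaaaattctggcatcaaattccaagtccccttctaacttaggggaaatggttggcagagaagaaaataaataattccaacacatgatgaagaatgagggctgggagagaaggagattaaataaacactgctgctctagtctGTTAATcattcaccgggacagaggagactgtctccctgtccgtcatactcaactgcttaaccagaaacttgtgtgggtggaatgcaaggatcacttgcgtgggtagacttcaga
The C9 window held 2 CCAAT boxes on the reverse strand, 206 and 72 bases before the gene start, and 1 C/EBP match 132 bases before it. The C4bp window held 1 HNF1 half-site, 64 bases before the start, and the Mbl2 window held none of these letters. Among all 32851 windows of this length, 37.4% held the CCAAT box, 10.8% the C/EBP letters, 7.10% the HNF1 half-site, 13.6% the TATA box and 0.475% the HNF4 letters. Of the 34 complement genes 26 had a window, of which 9 held the HNF1 half-site, 5 a CCAAT box, 5 a TATA box, 3 the C/EBP letters and 0 the HNF4 letters. The HNF1 half-site occurred both in genes with lower signal in p57-/- (C4bp, C8a, Hc) and in genes near 0 (C8b, Vtn, C1ra, Cfp, Cd55), as well as in C7, which was not analysed. A match describes letters in the window and says nothing of binding.

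Among the hepatocyte-made components, lower signals in both experiments were found for C9, C8a, Hc and C6 of the terminal cascade and for the lectins Mbl1 and Mbl2. Of 13 listed components 11 were tested, with these 6 lower, 2 (C8g and Cfb) higher in both and 3 opposed. The 11 had a median log2 change of -0.40 (experiment 1, -0.40, and experiment 2, -0.28). It was -0.15 without p57-/- replicate 1, -0.17 without p57+/+ replicate 2 and -0.23 among probe sets Present on all 4 arrays. The background over all tested genes was 26.7% for the lower direction and 29.6% for the higher one, with medians of 0.030 for experiment 1 and -0.0047 for experiment 2. Both p57-/- signals lay under both p57+/+ signals for 5 of the 11 components (background 19.0%) and above them for 2 (background 21.7%).

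C9 encodes the last component to join the membrane attack complex, the one that polymerizes into the pore. Its signal was 124 and 232 in p57-/- against 706 and 813 in p57+/+, with Present calls on all 4 arrays. Both p57-/- arrays lay far below both p57+/+ arrays, by 5.68-fold in experiment 1 and 3.51-fold in experiment 2. The log2 change was -2.16 (SE 0.28), or 4.46-fold lower in p57-/-, and ranked 3 of 22800 probe sets by p-value, without passing (limma adjusted p = 0.182). An alternative took the experiment number as a block. With 4 arrays this leaves little to estimate each probe set's own spread. Its p-values therefore rest largely on spread shared across probe sets. Under the block Eif2s3y, with opposed differences of 8.56 in experiment 1 and -0.94 in experiment 2, had an unadjusted limma p of 0.00374. A pass with the block thus does not by itself show that the experiments agree. With the block C9 passed at an unchanged estimate (limma adjusted p = 2.15e-04), a call that 0.132% of all probe sets received. The change of C9 was -1.71 without p57-/- replicate 1 and -2.61 without p57-/- replicate 2. Such a fit has 1 p57-/- array, which is assumed to vary like the p57+/+ arrays, so only the change is given. Among the alternatives with all 4 arrays C9 passed only with the block, and its adjusted p ran from 2.15e-04 to 0.754.

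Mbl2 encodes mannose-binding lectin C, a plasma lectin that starts the lectin pathway on sugar-coated surfaces. Its signal was 297 and 401 in p57-/- against 724 and 1064 in p57+/+, Present on all 4 arrays. The groups did not overlap, and the difference was alike in the experiments, at -1.29 in experiment 1 and -1.41 in experiment 2. The log2 change was -1.35 (SE 0.23), or 2.54-fold lower (rank 10 by p-value, limma adjusted p = 0.453). With the experiment block Mbl2 passed (limma adjusted p = 0.00493). Over the alternatives with all 4 arrays its adjusted p ran from 0.00493 to 0.776. Without p57-/- replicate 2 its change was -1.57. Mbl1, the paralogous gene for mannose-binding lectin A, had 1186 and 1658 in p57-/- against 1933 and 2014 in p57+/+. Its groups did not overlap, but the 2 p57-/- arrays were far apart, so that the change was -0.70 in experiment 1 and -0.28 in experiment 2 (-0.49 over both, SE 0.17, adjusted p = 0.578).

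The subunits of C8, which joins the attack complex before C9, had unlike estimates. C8a, for the alpha subunit that inserts into the membrane, had 1077 and 1156 in p57-/- against 1558 and 1871 in p57+/+. Its groups did not overlap, and the log2 change was -0.61 (SE 0.15, rank 100 by p-value, adjusted p = 0.519). C8b, for the beta subunit, had 4921 and 5092 in p57-/- against 5075 and 5057 in p57+/+, a change of -0.02 with a 95% interval of -0.27 to 0.24. C8g, for the small gamma subunit, had 6577 and 7516 in p57-/- against 5905 and 6077 in p57+/+, so that its p57-/- arrays were the higher ones (0.23, SE 0.12, adjusted p = 0.672). The 95% interval of C8a, -0.95 to -0.28, lay below that of C8g, -0.04 to 0.50. It lay only just below that of C8b, ending at -0.279 where that of C8b began at -0.271. The differences between the subunits were not themselves tested.

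In the mouse, Hc encodes complement C5, whose cleavage releases the inflammatory peptide C5a and starts the terminal cascade. Its signal was 6020 and 7020 in p57-/- against 7961 and 9276 in p57+/+. The groups did not overlap, and both experiments gave the same difference of -0.40 (SE 0.13, adjusted p = 0.557). C6, the next component of the cascade, was dim, at 56.8 and 96.4 in p57-/- against 83.6 (Absent) and 136 in p57+/+. Its groups overlapped and its change of -0.53 had an SE of 0.41.

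The genes of the proteases that build the convertases were near 0. Cfb, for factor B, the protease of the alternative pathway, had 7320 and 7027 in p57-/- against 6381 and 6857 in p57+/+. The p57-/- arrays were slightly above the p57+/+ arrays, with a change of 0.12 and a 95% interval of -0.14 to 0.37. C2, the protease of the classical and lectin convertase, had 1710 and 2256 in p57-/- against 1733 and 1866 in p57+/+, with overlapping groups. Its change was 0.13 (SE 0.16), and its other probe sets gave 0.03 and 0.08. Masp2, for the lectin-associated protease that cleaves C4 and C2, was at -0.07 and 0.05 with its 2 probe sets (SE 0.16 each). For Cfb, C2 and Masp2 these estimates leave no difference beyond the spread between arrays, and the intervals, the widest being -0.43 to 0.29 for Masp2, bound what could have been missed.

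**Figure D2:**
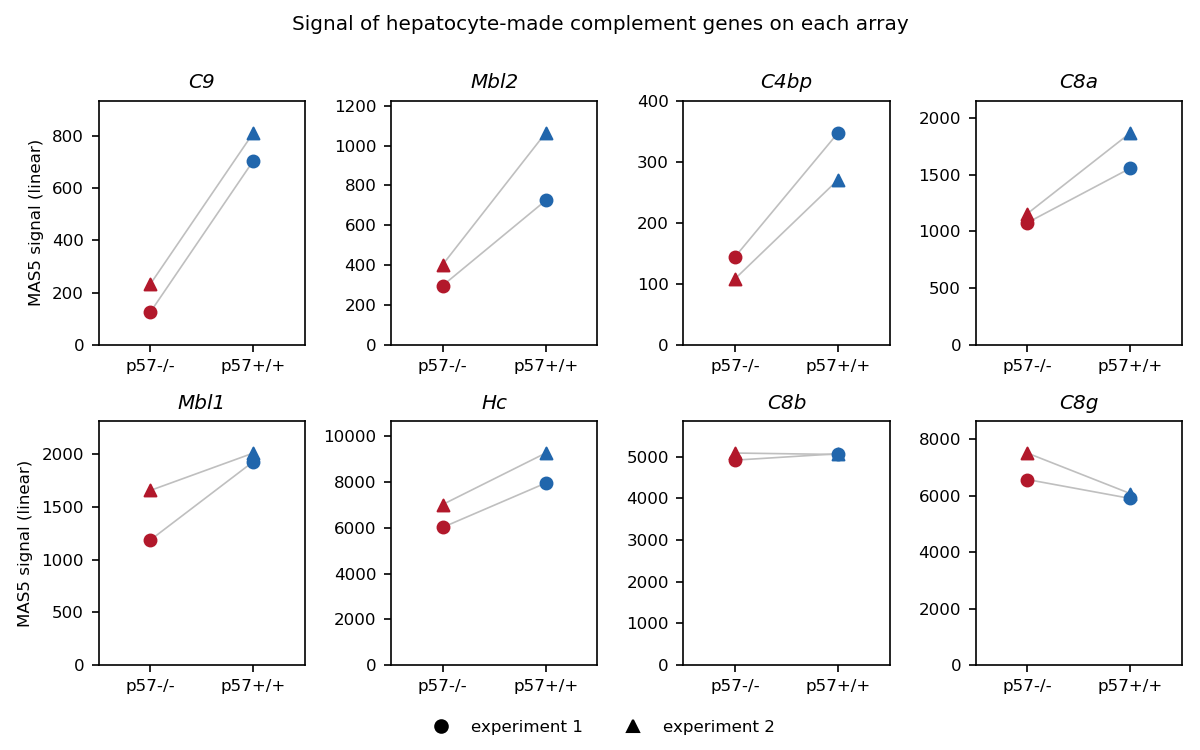
MAS5 signal (linear axis from 0) of 8 selected complement genes on each array, p57-/- left and p57+/+ right. Lines join arrays of the same experiment. C4bp is listed as a regulator and the others as hepatocyte-made components, of which C2, C6, Cfb and Masp2 are not shown. Of the 11 tested components, 5 had both p57-/- signals under both p57+/+ signals (background 19.0%). For C9, Mbl2, C4bp, C8a, Mbl1 and Hc both p57-/- arrays lie below both p57+/+ arrays, while C8b is level at 4921 to 5092 and C8g is higher in p57-/-.

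Other hepatocyte genes were examined beside these components. Of 25 listed genes 22 were tested and all 22 were Present on every array. Tat was not tested because it had no Present call. Of the 22 tested genes, 2 were lower in both experiments (background 26.7%), 1 was higher in both (background 29.6%) and 19 were opposed. They had a median log2 change of 0.03 and a range of -0.55 (Cyp2e1) to 0.20 (Rbp4). Their summed signal was 849041 and 813922 in p57-/- against 740009 and 890639 in p57+/+, so that the p57+/+ arrays lay on either side of the p57-/- arrays. Such a sum is set mostly by its brightest members, and Apoa1 or Ttr gave the highest signal of every array. Most of the 22 genes had far higher signals than C9, Mbl2 and C4bp. Whether differences are measured alike at such signals was not tested. The following genes were singled out after their values were seen. The regulators of hepatocyte transcription Hnf4a and Cebpa were at 0.13 (SE 0.12) and 0.19 (SE 0.17). Cyp2e1, a drug-metabolizing enzyme gene that the liver turns on late in development, was lower in both experiments, at 1081 and 701 in p57-/- against 1424 and 1138 in p57+/+ (-0.55, SE 0.21, adjusted p = 0.606). Erythroid genes had lower signals, with none past the threshold. Of 12 listed 10 were tested, and all 10 were lower in both experiments (background 26.7%). Their median change was -0.50, with summed signals of 86571 and 118804 in p57-/- against 130384 and 137913 in p57+/+. The brightest, Slc4a1, Tfrc and Hemgn, were at -0.24 (SE 0.11), -0.50 (SE 0.16) and -0.40 (SE 0.18). The part of the hepatocyte and erythroid shares in the complement values was not tested.

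The chains of C1q, which macrophages secrete and which recognizes antibody and dying cells, were slightly higher in p57-/- replicate 1. C1qa had 3207 and 2793 in p57-/- against 2554 and 2500 in p57+/+, and its groups did not overlap (0.24, SE 0.13, adjusted p = 0.679). C1qb had 3952 and 3038 in p57-/- against 3007 and 2722 in p57+/+, where p57-/- replicate 2 lay just above p57+/+ replicate 1 (0.28, SE 0.15, adjusted p = 0.685). C1qc had 2779 and 1617 in p57-/- against 1850 and 2057 in p57+/+, so that the p57-/- arrays lay on either side (0.12, SE 0.22). The 3 chains form 1 molecule, and they had a median change of 0.39 in experiment 1 but 0.16 in experiment 2. Without p57-/- replicate 1 the median was 0.087 and without p57-/- replicate 2 it was 0.47. All 3 tested C1qb probe sets had positive changes, from 0.15 to 0.37. The one with the smallest change had 2158 and 1272 in p57-/- against 1616 and 1374 in p57+/+. Its groups overlapped, with a difference of 0.42 in experiment 1 and -0.11 in experiment 2.

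The macrophage markers had no shared direction, and their sum was highest on the same array as the C1q chains. Of 18 listed symbols 16 were tested, and all 16 were Present on every array. Of the 16, 3 were higher in both experiments (background 29.6%), 3 lower (background 26.7%) and 10 opposed. They had a median change of 0.05 (0.24 in experiment 1 and -0.17 in experiment 2). Their summed signal was 74095 and 61379 in p57-/- against 63548 and 61563 in p57+/+. The summed C1q signal was 9938 and 7447 in p57-/- against 7410 and 7280 in p57+/+. Among the brightest, Lyz2, Csf1r and Slc40a1 were at 0.32 (SE 0.11), 0.05 (SE 0.15) and 0.07 (SE 0.12). The 3 lower in both experiments were Cd5l, Clec4f and Timd4, at -0.50 (SE 0.14), -0.25 (SE 0.21) and -0.38 (SE 0.19). The 3 higher in both were Lyz2, Cd163 and Hmox1, of which Cd163 was at 0.49 (SE 0.30) and Hmox1 at 0.35 (SE 0.25). These were named after their values were seen, and none passed the threshold. The part of macrophage number in the C1q values was not tested.

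Components of other or mixed sources had overlapping groups with the probe set used for each gene. Of 7 listed genes 5 were tested, of which 1 was higher in both experiments (background 29.6%), 1 lower (background 26.7%) and 3 opposed. The median change was 0.06. That median was -0.035 without p57-/- replicate 1 and 0.20 without p57-/- replicate 2. C1ra, for the protease that C1q carries, had 1218 and 1360 in p57-/- against 1278 and 1186 in p57+/+, with overlapping groups (0.06, SE 0.14). Fcna, for ficolin A, a lectin-pathway recognition molecule made by macrophages, had 4166 and 3184 in p57-/- against 3656 and 3617 in p57+/+, the p57-/- arrays lying on either side (0.002, SE 0.15). Cfp, for properdin, which stabilizes the alternative convertase, had 937 and 730 in p57-/- against 697 and 870 in p57+/+, opposed between experiments (0.09, SE 0.19). Its second probe set was Present on 1 array and not tested. Colec11, for the lectin collectin-11, had 4968 and 3753 in p57-/- against 4028 and 3668 in p57+/+ (0.17, SE 0.15), and its second probe set gave 0.06.

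Masp1, which through alternative splicing encodes several lectin-associated proteins, gave different answers with different probe sets. The brightest had 2683 and 3623 in p57-/- against 3192 and 3881 in p57+/+, a change of -0.17 (SE 0.17) with overlapping groups. Another had 1976 and 1220 in p57-/- against 963 and 1154 in p57+/+, both p57-/- signals above both p57+/+ signals, with a change of 0.56 (SE 0.22, adjusted p = 0.610). The remaining tested probe sets gave 0.18 and 0.06, and one more was Present on 1 array and not tested. The Masp1 probe sets spanned 0.73 on the log2 scale, and those of the 9 other genes with several spanned from 0.05 to 0.33.

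**Figure D3:**
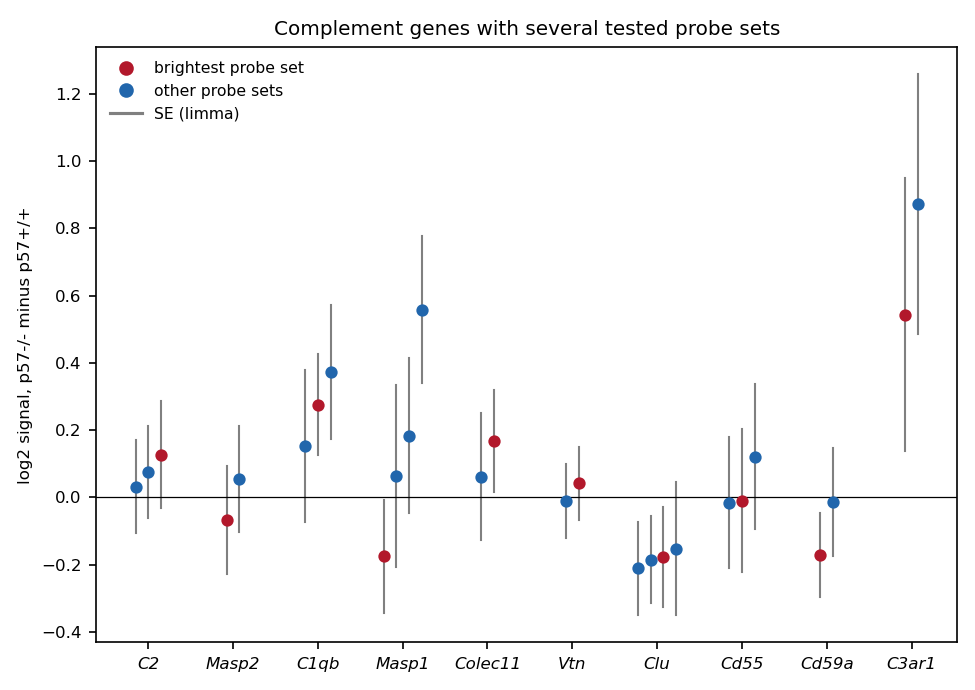
Log2 change, p57-/- minus p57+/+, of every tested probe set of the 10 complement genes with several, with the limma SE. The probe set used for each gene is red; the Masp1 probe sets range from -0.17 to 0.56, and the 4 Clu probe sets from -0.21 to -0.15.

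Of the regulators, C4bp was lower in p57-/- and the others were near 0 or decided by 1 array. C4bp encodes the C4b-binding protein of plasma, which takes apart the classical and lectin convertase. Its signal was 144 and 108 (Absent) in p57-/- against 348 and 271 in p57+/+. The groups did not overlap, and the change was -1.27 in experiment 1 and -1.33 in experiment 2. As 1 of the 2 p57-/- arrays did not measure it above background, these differences are not exact. Over both experiments the change was -1.30 (SE 0.26, limma adjusted p = 0.519). Among the alternatives with all 4 arrays the lowest limma adjusted p was 0.0566, with the experiment block, and the highest was 0.776. Of the 8 regulators 7 were tested, of which 1 was higher in both experiments (background 29.6%), 2 lower (background 26.7%) and 4 opposed. The median change was -0.02, and it ran from -0.15 to -0.0090 when 1 array was left out.

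The other soluble regulators had high signals on all arrays. Cfi, for factor I, the protease that inactivates C3b and C4b, had 25408 and 25137 in p57-/- against 23716 and 27741 in p57+/+. The p57+/+ arrays lay on either side of the p57-/- arrays (-0.02, 95% interval -0.28 to 0.23). Vtn, for vitronectin, which blocks insertion of the attack complex, had 29971 and 32169 in p57-/- against 28506 and 31908 in p57+/+ (0.04, 95% interval -0.20 to 0.29), with overlapping groups. Clu, for clusterin, another inhibitor of the attack complex, had 4823 and 3716 in p57-/- against 4497 and 5087 in p57+/+ (-0.18, SE 0.15). The low value was that of p57-/- replicate 2, and all 4 Clu probe sets were between -0.21 and -0.15.

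Serping1 encodes the C1 inhibitor, which blocks C1r, C1s and the lectin-associated proteases. It had 12894 and 8120 in p57-/- against 7367 and 8316 in p57+/+. Only p57-/- replicate 1 stood apart, and p57-/- replicate 2 lay between the p57+/+ arrays. The change of 0.39 (SE 0.19, adjusted p = 0.655) was 0.81 in experiment 1 and -0.03 in experiment 2. Without p57-/- replicate 2 it was 0.72 and passed (adjusted p = 0.0452), the 1 of 12 alternatives in which it did, and without p57-/- replicate 1 it was 0.053 (adjusted p = 0.984). Mesenchymal genes, with 12 of 13 tested, also had their highest summed signal on that array, at 108186 and 99069 in p57-/- against 84166 and 94240 in p57+/+, and all 12 were Present on every array. The brightest, Col3a1, Col1a2 and Reln, were at 0.19 (SE 0.12), 0.10 (SE 0.11) and 0.21 (SE 0.11). The 12 had a median change of 0.23, with 10 higher in both experiments (background 29.6%). Macrophage markers also had their highest sum on p57-/- replicate 1, at 74095 and 61379 in p57-/- against 63548 and 61563 in p57+/+. So did endothelial markers, at 12806.5 and 9391 in p57-/- against 9750 and 10679 in p57+/+. The hepatocyte, granulocyte, mesothelial and erythroid lists had their highest sums on other arrays. The part of these cell types in the Serping1 value was not tested.

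The membrane regulators showed small changes. Cd59a, for a surface protein that stops C9 from polymerizing, had 2254 and 2315 in p57-/- against 2675 and 2475 in p57+/+. Its groups did not overlap (-0.17, SE 0.13, adjusted p = 0.761), but its second probe set was at -0.01 with overlapping groups. Cd55, for decay-accelerating factor, which breaks up convertases, had 757 and 509 in p57-/- against 676 and 577 in p57+/+. The p57-/- arrays lay on either side (-0.01, SE 0.21), and the other probe sets gave 0.12 and -0.02.

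The receptor genes had low signals, and p57-/- replicate 1 lay farthest from the other arrays for each of them. C3ar1, for the receptor of the inflammatory peptide C3a, had 295 and 118 in p57-/- against 144 and 114 in p57+/+. Only p57-/- replicate 1 was clearly higher (0.54, SE 0.41, adjusted p = 0.763), with a difference of 1.04 in experiment 1 and 0.05 in experiment 2. Its second tested probe set was at 0.87 (SE 0.39, adjusted p = 0.642), from signals of 216 and 103 (Absent) in p57-/- against 81.3 and 81.9 (Marginal) in p57+/+. One more probe set was Present on p57-/- replicate 1 alone, at 291, with 89.3 on the other p57-/- array and 23.1 and 68.8 in p57+/+.

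C5ar1, for the receptor of C5a on myeloid cells, had 136 and 68.5 in p57-/- against 73.6 and 79.5 in p57+/+ (0.33, SE 0.41). The p57-/- arrays lay on either side of the p57+/+ arrays, and the other probe set had no Present call. Vsig4, for the C3b receptor of tissue macrophages, had 338 and 560 in p57-/- against 481 and 477 in p57+/+, again on either side (-0.14, SE 0.24). Here p57-/- replicate 1 was the low array, unlike for the peptide receptors. The 3 receptors had a median change of 0.33, at 0.88 in experiment 1 and 0.05 in experiment 2. The median was -0.12 without p57-/- replicate 1 and 0.82 without p57-/- replicate 2, so its sign rested on 1 array.

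Other genes of the complement system, outside the 34, gave no called change. Of 35 listed symbols 14 were tested, of which 5 were higher in both experiments (background 29.6%), 3 lower (background 26.7%) and 6 opposed. The median change was 0.06. The largest change was that of Cfhr2, for a factor H-related plasma protein, at 916 and 606 in p57-/- against 1209 and 1082 in p57+/+. Its groups did not overlap (-0.62, SE 0.20, adjusted p = 0.559). C1s1, for the protease partner of C1r, was at 0.13 (SE 0.12), and Colec10, for a collectin that pairs with collectin-11, at 0.15 (SE 0.13). Fcnb, for the ficolin of granulocytes, was at 0.23 (SE 0.14). Granulocyte markers, with 9 of 11 tested higher in both experiments (background 29.6%), had a median change of 0.17. Their brightest, S100a9, S100a8 and Ngp, were at 0.11 (SE 0.10), 0.06 (SE 0.10) and 0.18 (SE 0.10).

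Genes for other receptors and for peptide breakdown were also near 0. Cr1l, for the rodent regulator Crry that protects cells from C3 deposition, had 1818 and 2197 in p57-/- against 2243 and 2370 in p57+/+ (-0.21, SE 0.14), without overlap. Itgb2, for the shared chain of the C3 receptors of leukocytes, was at 0.10 (SE 0.14). Cpn1 and Cpn2, for the subunits of the carboxypeptidase that inactivates C3a and C5a, were at -0.15 (SE 0.12) and 0.08 (SE 0.14). Cd93, for a surface protein first described as a C1q receptor, was at -0.03 (SE 0.21). C1qbp and Calr, for proteins that bind C1q besides other functions, were at -0.0003 (SE 0.11) and 0.10 (SE 0.13).

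Probe sets shared between genes are given apart, since their signal cannot be assigned. The probe set of C4a and C4b, for complement C4 and its mouse paralogue, had 4725 and 2892 in p57-/- against 2311 and 3362 in p57+/+. Its difference was 1.03 in experiment 1 and -0.22 in experiment 2, and p57-/- replicate 1 was again the high array (0.41, SE 0.24, adjusted p = 0.702). The probe set shared by C1ra and C1rb was at -0.26 (SE 0.23), and that shared by Cd55 and Cd55b had no Present call.

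The 3 lowest tested complement genes were the same in both experiments, and the 3 highest of experiment 1 were near or under 0 in experiment 2. C9, Mbl2 and C4bp lay at -2.51, -1.29 and -1.27 in experiment 1 and at -1.81, -1.41 and -1.33 in experiment 2. The highest values of experiment 1 were those of C3ar1, C5ar1 and Serping1, at 1.04, 0.88 and 0.81, and the same genes gave 0.05, -0.21 and -0.03 in experiment 2. The experiments share no array, but each holds 1 array of each genotype, so a difference within one has no replicate and was not tested.

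**Figure D4:**
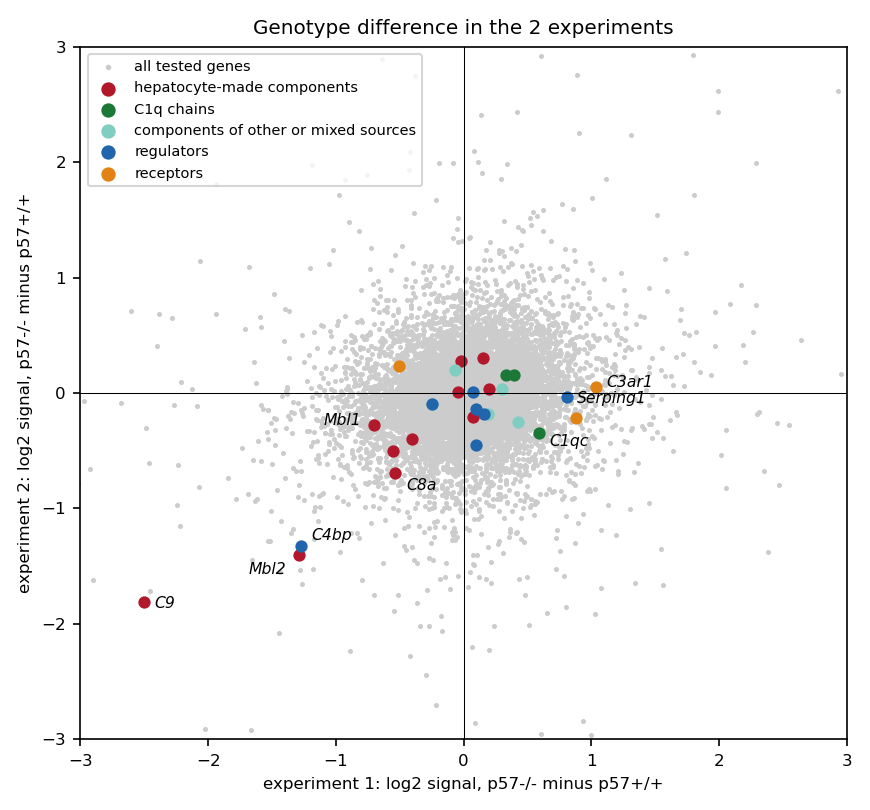
Log2 signal difference, p57-/- minus p57+/+, in experiment 1 (horizontal) and experiment 2 (vertical); coloured points are the tested complement genes by role and grey points all tested genes, of which 50 lie outside the axes. C9, Mbl2 and C4bp lie in the lower left, while C3ar1 and Serping1 lie to the right near the horizontal axis.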

How the data were processed

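The authors deposited MAS5 signal intensity per probe set on a linear scale, per the file headers, with a detection p-value and a Present, Marginal or Absent call. MAS5 settings are not stated. After trimming 2% at each end, the deposited intensities averaged 500.003 on every array, which hides changes in total RNA. Signals were log2 transformed without a pseudocount. Of 45101 probe sets, 64 controls were dropped, and 22800 were tested with limma 3.58.1 in R 4.3.3 (eBayes with a variance trend, genotype only, two-sided, Benjamini-Hochberg over all of them, threshold 0.05); the fit was tested on simulated data. A gene is represented by its tested probe set of highest mean log2 signal. Platform annotation gave 34945 probe sets 1 symbol, 932 several and 9160 none. Every member is described, as are other pathway genes if Present on every array with a mean signal over 1000 or among the 4 of largest change, and the 3 brightest of each marker list; exceptions are named as such. Members and lists were chosen with earlier results of these data known. The titles pair arrays by experiment number, but same-numbered arrays shared no deviation from their genotype means (correlation over probe sets 0.0046), so the block is an alternative. The number of arrays limits precision. Alternatives changed the block, normalization, filter, pseudocount (16), variance trend, probe sets per gene, value table (same signals) and arrays included.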

Additional observations from a re-analysis of the deposited data

How the results depend on the processing

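Under 12 alternatives (11 for C4bp and C6, which are not tested among probe sets Present on all 4 arrays), 13 of the 29 tested complement genes kept the sign of their change, among them C9, Mbl2, C4bp, C8a, Hc and Mbl1, and 16 took the other sign under at least 1. Leaving out 1 array at a time, whereby a lone array is assumed to vary like the other genotype, gave ranges that included both signs for C2 (-0.073 to 0.33), C8b (-0.042 to 0.0073), Masp2 (-0.14 to 0.0022), C1qc (-0.27 to 0.51), C1ra (-0.015 to 0.14), Cfp (-0.093 to 0.27), Fcna (-0.19 to 0.20), Masp1 (-0.39 to 0.042), Colec11 (-0.035 to 0.37), Cfi (-0.13 to 0.092), Vtn (-0.039 to 0.12), Clu (-0.36 to 0.012), Cd55 (-0.29 to 0.28), C3ar1 (-0.12 to 1.21), C5ar1 (-0.16 to 0.82) and Vsig4 (-0.50 to 0.23). The sign also turned for Vtn after quantile normalization (-0.027) and, when a gene's probe sets were averaged, for Masp1 (0.16) and Cd55 (0.032). The threshold was passed by 1 probe set in all, Cdkn1c, by 30 with the experiment number as a replicate block, by 0 among those Present on all 4 arrays, where Cdkn1c is not tested, and by 5 to 221 when 1 array was left out. The largest of these counts arose without p57-/- replicate 2. Of the complement genes 0 passed in the main setting, 2 (C9 and Mbl2) with the block, and 0 to 3 without 1 array. The adjusted p of C9 ran from 2.15e-04 to 0.754 over the alternatives. The block changed no other call among the complement genes, and its p-values rest largely on spread shared across probe sets. The median of the hepatocyte-made components was -0.23 among probe sets Present on all 4 arrays, without C6, and ran from -0.51 to -0.15 when 1 array was left out. That of the C1q chains ran from 0.087 to 0.47. The cause of these shifts was not tested. C6 and C4bp were Absent on 1 array each, so 3 of 4 arrays measured them above background.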
